A study of Mus musculus with 4 samples.

Results

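The genes described here are 10 ubiquitin ligases that have been tied to the loss of skeletal muscle mass: Trim63, Fbxo32, Fbxo30, Fbxo31, Fbxo21, Trim32, Asb2, Klhl38, Nedd4 and Traf6. They were selected by gene symbol, with results from these same libraries already known, and they are 10 of the 23282 gene rows in the expression tables. Their levels and changes are therefore given as a description, without tests. The study had itself put Trim63 and Asb2 on its list of candidates, because both differed at least 2-fold in 3 comparisons of these libraries.

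Gene expression was measured in the gastrocnemius muscle of male CDF1 mice. The labels place them at postnatal day 28, the age at which the methods say the animals were bought. Tissue was taken at the end of the experiment, so the animals were older by then, at an age that the labels do not give. Normal control (E-T-) mice neither ran nor received tumor cells, and normal exercise (E+T-) mice ran on a treadmill at high intensity every other day. Cancer control (E-T+) mice received CT26 cells, a murine colorectal carcinoma line, through the tail vein and did not run, and cancer exercise (E+T+) mice received the cells and ran. Each group had 10 mice according to the labels and 1 sequenced library, so no difference between libraries below has a replicate check. The study also measured selected genes, Trim63 and Asb2 among them, by RT-qPCR in littermates, and reported changes that matched its sequencing. Those measurements are not part of the values below. The study describes a representative mouse of each group as the source of the sequenced muscle. The study reported that cells given this way spread through the body, colon and lungs included. It saw no tumor growth in the gastrocnemius of the cancer exercise mouse. Whether tumor cells were present in the sequenced muscles was not tested here.

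Ubiquitin ligases choose the proteins that are marked with ubiquitin chains for breakdown by the proteasome or for other fates. In muscle fibres that waste after fasting, denervation, steroid treatment or in tumor-bearing animals, the transcripts of Trim63 and Fbxo32 are known to be raised, and both genes are targets of FoxO transcription factors. The 10 genes stand for several kinds of ligase. Trim63, Trim32 and Traf6 carry a RING domain, Fbxo32, Fbxo30, Fbxo31 and Fbxo21 are F-box adaptors of complexes built on Cul1 and Skp1a, Asb2 and Klhl38 belong to adaptor families of Cul5 and Cul3 complexes, and Nedd4 is a HECT ligase.

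In the GENCODE release 21 annotation of the mouse build mm10 (GRCm38), the genes lie on 8 chromosomes. Trim63 is on chromosome 4 from 134315120 to 134329629 on the forward strand, and its longest coding transcript has 9 exons and encodes 355 residues. Fbxo32 is on chromosome 15 from 58175879 to 58214932 on the reverse strand, likewise with 9 exons and 355 residues. Klhl38 is its neighbour on the same strand, from 58314573 to 58324169, and the 99.6 kb between them hold 0 other annotated genes. Fbxo31 is on chromosome 8 from 121549440 to 121578806 and Asb2 on chromosome 12 from 103321142 to 103356001, both on the reverse strand. The other 5 genes are Fbxo30 on chromosome 10, Fbxo21 on chromosome 5, Trim32 on chromosome 4, Nedd4 on chromosome 9 and Traf6 on chromosome 2. Genes on the opposite strand overlap 5 of the 10. Gm15943 covers 9481 of the 9597 bases of Klhl38 and 458 of Fbxo32, Gm20388 covers all 29367 bases of Fbxo31, Gm15523 covers 11152 bases of Asb2, and Trim32 lies wholly inside Astn2. The use of strand in counting was not stated, so reads within such overlaps cannot be told apart. Astn2 was listed with reads of its own, 6, 40, 10 and 0 in E-T-, E+T-, E-T+ and E+T+. On its own strand Nedd4 overlaps A530064N14Rik (1492 bases), Gm7265 (3502), Gm37955 (212) and Gm36936 (2749), which strand cannot separate.

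The 250 bases before the start site are shown for Trim63, Fbxo31 and Asb2, which had, among the genes with a promoter in RefSeq, large differences with the tumor in each direction (RefSeq, build GRCm38.p6, 5′ to 3′ on the strand of the gene). Capitals mark matches, on either strand, to the motifs named below them. The Fbxo31 and Asb2 stretches hold no match. For Asb2, the stretch before its other start site is not shown.
Trim63, chr4:134314870-134315119, forward strand: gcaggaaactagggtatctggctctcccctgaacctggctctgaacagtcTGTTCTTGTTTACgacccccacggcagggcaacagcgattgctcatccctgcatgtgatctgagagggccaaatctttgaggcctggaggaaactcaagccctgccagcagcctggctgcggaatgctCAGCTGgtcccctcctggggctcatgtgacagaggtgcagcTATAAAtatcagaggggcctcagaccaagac
Fbxo31, chr8:121578807-121579056, reverse strand: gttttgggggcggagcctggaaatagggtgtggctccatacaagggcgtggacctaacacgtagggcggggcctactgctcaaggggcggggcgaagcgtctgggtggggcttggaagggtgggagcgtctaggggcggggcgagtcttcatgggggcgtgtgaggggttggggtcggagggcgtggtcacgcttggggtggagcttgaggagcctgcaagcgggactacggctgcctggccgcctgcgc
Asb2, chr12:103356002-103356251, reverse strand: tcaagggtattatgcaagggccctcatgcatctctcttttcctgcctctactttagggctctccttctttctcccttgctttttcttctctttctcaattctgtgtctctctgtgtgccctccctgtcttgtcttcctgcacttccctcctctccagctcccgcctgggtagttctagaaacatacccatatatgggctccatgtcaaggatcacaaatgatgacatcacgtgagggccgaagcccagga

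RefSeq promoter windows, 250 bases before to 50 after a start site, were matched for 8 of the 10 genes (10 windows, since Asb2 and Nedd4 have a pair of start sites each). Fbxo32 and Klhl38 were not matched. The Trim63 window holds TGTTCT, a half-site of the glucocorticoid receptor, at -200 from the start site, and directly next to it TGTTTAC, the FoxO core, at -194. It also holds the myogenic E-box CAGCTG at -72 and TATAAA at -31. TGTTTAC occurs in 3.65% of all 32851 windows, and among the 8 genes in the Trim63 window only. TGTTCT occurs in 19.0% of all windows and also in a Nedd4 window. TATAAA occurs in 13.6% and in no other of the 8 genes. CAGCTG occurs in 16.3% and also in windows of Asb2, Nedd4 and Trim32. In Asb2 it lies at 21 from the start site that is not shown above. TTCNNNGAA, the STAT palindrome, occurs in 8.3% of windows and of the 8 genes in Nedd4. These are matches of letters and not measured binding sites.

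From about 10647720 to 13225974 reads were assigned to genes per library, and 14427 to 14830 genes had reads. The files give log2 of the normalized read count plus 1, and the reads behind each value were rebuilt from its steps. Each read marks the tail end of a polyadenylated transcript, and counts do not scale with transcript length, so the levels of different genes are compared without dividing by length. Muscle fibre markers were abundant in every library, with 14 genes summing to 126400, 110100, 75160 and 80360 RPM (reads scaled to a library total of 1000000) in E-T-, E+T-, E-T+ and E+T+. They were lower in both tumor libraries, where Trim63 and Fbxo32 were higher. In E-T+ against E-T- 6 of the 14 were called lower and 2 higher, beside 24.2% and 20.9% over all genes. In bulk tissue, fewer cells of a type and less RNA per cell cannot be told apart. A gene was called higher or lower when its normalized read count differed at least 2-fold and either of the libraries compared reached 4. Intervals are 95% Clopper-Pearson intervals on the reads of 2 libraries and cover counting error only, not the difference between animals.

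All 10 genes reached this minimum in every comparison. With the tumor and without exercise, 5 of the 10 were called higher and 1 lower, against 20.9% and 24.2% of 14818 genes. With the tumor in exercised mice 4 were higher and 0 lower, against 13.9% and 16.3% of 14470 genes. With exercise in healthy mice 0 were higher and 4 lower, against 9.44% and 12.1% of 14518 genes. With exercise in tumor-bearing mice 1 was higher and 4 were lower, against 15.6% and 15.1% of 14491 genes. Between cancer exercise and normal control, 3 were higher and 0 lower, against 13.9% and 18.2% of 14595 genes. The genes were picked with these values known, so the counts say nothing about how unusual the set is. The comparisons share libraries, cancer control for example entering both that of the tumor and that of exercise in tumor-bearing mice, so they are not independent.

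The median change of the 10 genes, on the log2 scale, was 1.11 with the tumor and without exercise, beside -0.04 over all genes at the minimum. It was 0.55 beside -0.03 with the tumor in exercised mice, -0.24 beside -0.01 with exercise in healthy mice, and -0.72 beside 0.01 with exercise in tumor-bearing mice. Setting Klhl38, which has 0 reads in 1 library, to its bound leaves it at the end of the order and leaves these medians as they are. When reads were scaled by library totals, the median was -0.08 for E+T- against E-T-, beside 0.15 over all genes. For E+T+ against E+T- it was then 0.40 beside -0.18.

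**Figure D1:**
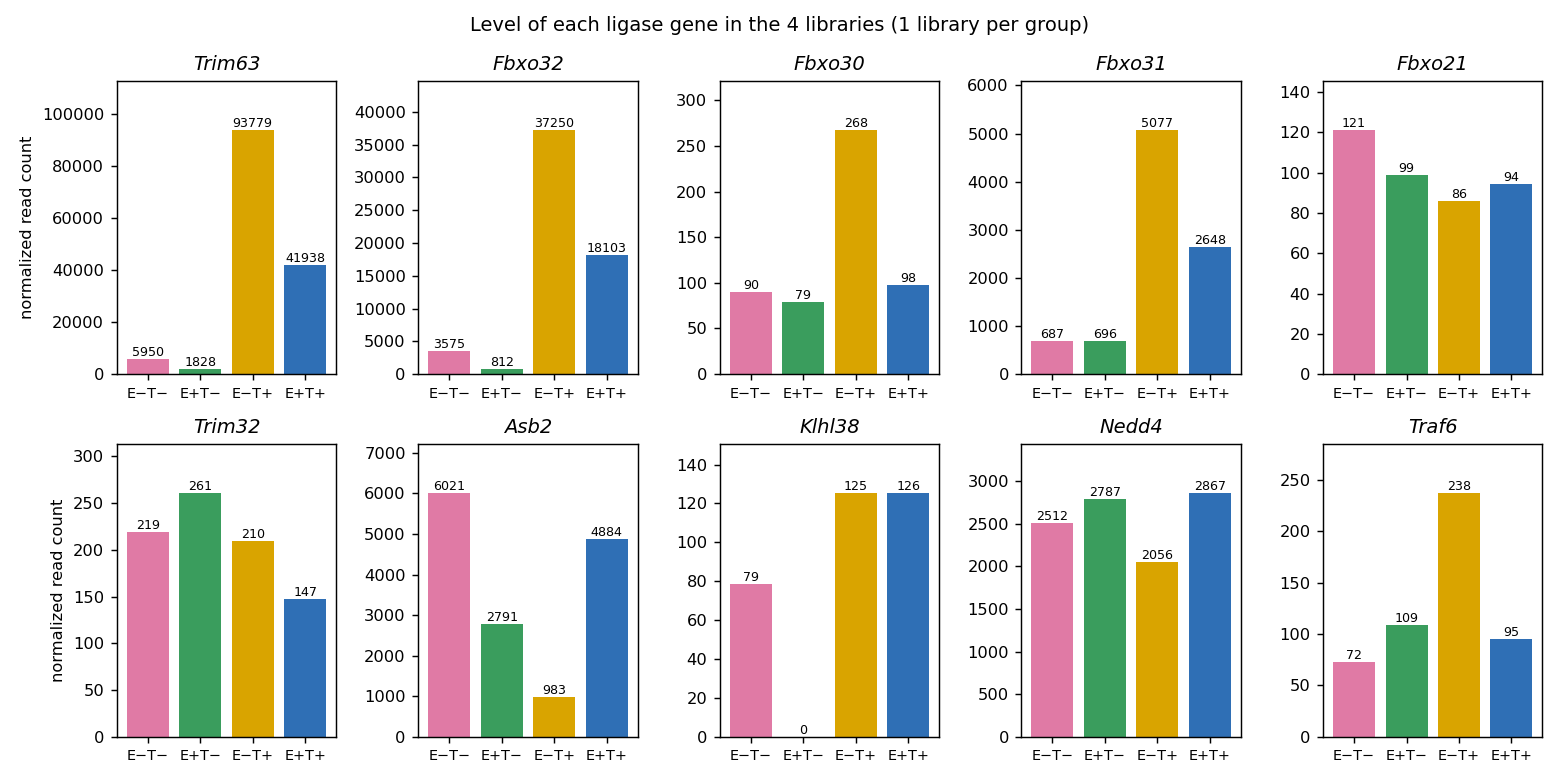
Normalized read count (vertical axis, linear and starting at 0, scaled for each gene) of the 10 ligase genes in the 4 libraries, 1 bar per library, with E for exercise and T for tumor. Trim63, Fbxo32 and Fbxo31 are highest in both tumor libraries, Asb2 is lowest in cancer control, and Klhl38 has no bar in normal exercise.

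Trim63 encodes MuRF1, a RING ligase of the sarcomere that marks thick filament proteins. Its normalized read count was 5950 in E-T-, 1828 in E+T-, 93779 in E-T+ and 41938 in E+T+. Both tumor libraries were above both libraries without a tumor, and within each pair the exercised library was lower. Ordered by level, Trim63 stood at place 243 of all genes in E-T-, 866 in E+T-, 13 in E-T+ and 23 in E+T+. It took 0.0497% of all reads of E-T- and 0.823% of those of E-T+.

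With the tumor and without exercise Trim63 was 15.8-fold higher (log2 fold change 3.98, interval 3.94 to 4.02), place 272 of the 14818 genes at the minimum when ordered from the highest. In exercised mice it was 22.9-fold higher with the tumor (4.52, interval 4.46 to 4.58). Exercise went with a value 3.25-fold lower in healthy mice (-1.70, interval -1.77 to -1.63) and 2.24-fold lower in tumor-bearing mice (-1.16, interval -1.18 to -1.14). The level in cancer exercise was still 7.05-fold above that of normal control.

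Fbxo32 encodes atrogin-1, the F-box adaptor that is read beside MuRF1 as a mark of muscle wasting. Its normalized read count was 3575 in E-T-, 812 in E+T-, 37250 in E-T+ and 18103 in E+T+, the same order of libraries as for Trim63. It stood at place 420, 2107, 25 and 67 by level in these libraries. The tumor went with a value 10.4-fold higher without exercise (3.38, interval 3.33 to 3.43) and 22.3-fold higher with it (4.48, interval 4.39 to 4.57). With exercise it was 4.40-fold lower in healthy mice (-2.14, interval -2.24 to -2.04) and 2.06-fold lower in tumor-bearing mice (-1.04, interval -1.07 to -1.01). The last value lies just past the 2-fold limit. Fbxo32 in cancer exercise remained 5.06-fold above normal control.

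Trim63 had more reads than Fbxo32 in every library. The ratio of their normalized read counts was 1.67 in E-T-, 2.25 in E+T-, 2.52 in E-T+ and 2.32 in E+T+, so it varied far less than the level of either gene.

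Fbxo31, an F-box adaptor known for marking cyclin D1, followed the tumor but not the same path with exercise. Its normalized read count was 687 in E-T-, 696 in E+T-, 5077 in E-T+ and 2648 in E+T+. The libraries without a tumor differed by 0.02 on the log2 scale, with an interval of -0.13 to 0.17. With the tumor the level was 7.38-fold higher without exercise (2.88, interval 2.77 to 3.01) and 3.80-fold higher with exercise (1.93, interval 1.82 to 2.04). In tumor-bearing mice the log2 fold change with exercise was -0.94 (interval -1.01 to -0.87), just short of the 2-fold limit. All of the gene is covered by Gm20388 on the other strand.

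Fbxo30, also called MUSA1, is an F-box adaptor tied to denervation atrophy. It had a normalized read count of 90.5 in E-T-, 79.3 in E+T-, 268 in E-T+ and 97.5 in E+T+. Cancer control alone stood apart, 2.94-fold above normal control (1.55, interval 1.21 to 1.94) and 2.73-fold above cancer exercise. Cancer exercise and normal exercise differed by 0.29 on the log2 scale with an interval of -0.13 to 0.72, which includes 0.

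Fbxo21, also called SMART, is the remaining F-box adaptor. Its normalized read count was 121 in E-T-, 98.9 in E+T-, 85.7 in E-T+ and 94.2 in E+T+, from 80 to 122 reads. No comparison reached 2-fold. Its largest difference, -0.50 with the tumor and without exercise, had an interval of -0.93 to -0.08.

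Traf6 is a RING ligase of cytokine and Toll-like receptor signaling that has been placed upstream of the FoxO program in muscle. Its normalized read count was 72.4 in E-T-, 109 in E+T-, 238 in E-T+ and 95.3 in E+T+. As for Fbxo30, cancer control stood above the other libraries, 3.25-fold over normal control (1.70, interval 1.32 to 2.13) and 2.48-fold over cancer exercise. In exercised mice the tumor difference was -0.19 with an interval of -0.59 to 0.21. Fbxo30 and Traf6 rest on 68 to 250 reads, which leaves wider intervals than for Trim63 and Fbxo32.

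Asb2, an adaptor of a Cul5 ligase that marks filamins and that lowers muscle mass when it is overexpressed, ran the other way. Its normalized read count was 6021 in E-T-, 2791 in E+T-, 983 in E-T+ and 4884 in E+T+. Normal control and cancer exercise were the highest libraries, and cancer control the lowest. Asb2 stood at place 240 by level in normal control, close to Trim63 there, and at place 1899 in cancer control.

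With the tumor and without exercise Asb2 was 6.12-fold lower (-2.61, interval -2.72 to -2.51). With exercise it was 2.16-fold lower in healthy mice (-1.11, interval -1.17 to -1.05) but 4.96-fold higher in tumor-bearing mice (2.31, interval 2.21 to 2.42). The value in healthy mice was -0.95 when reads were scaled by library totals, which is short of 2-fold. In exercised mice Asb2 was higher with the tumor by 0.81 on the log2 scale (interval 0.74 to 0.87), under the limit.

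Klhl38 is a kelch-family gene of muscle. It had 74 reads in E-T-, 0 in E+T-, 117 in E-T+ and 116 in E+T+, that is, a normalized read count of 78.7, 0, 125 and 126. Only normal exercise stood apart. Set against the limit of 3 reads that a count of 0 allows, Klhl38 was 32.4-fold lower in E+T- than in E-T- and 51.7-fold higher in E+T+ than in E+T-. The counting intervals, which also cover the reads of the other library, allow smaller differences. They end at -4.68 for E+T- against E-T- and 5.37 for E+T+ against E+T- on the log2 scale. The tumor libraries differed by 0.00 on the log2 scale, with an interval of -0.38 to 0.39. A count of 0 need not mean that the transcript was absent, and what lies behind it was not tested.

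Nedd4 and Trim32 varied least beside Fbxo21. The normalized read count of Nedd4, a HECT ligase, was 2512 in E-T-, 2787 in E+T-, 2056 in E-T+ and 2867 in E+T+. Its differences ran from -0.29 to 0.48 on the log2 scale and none reached 2-fold. Trim32, a RING ligase mutated in a limb-girdle muscular dystrophy, had 219, 261, 210 and 147 in the same order of libraries. Its largest difference was -0.82 with the tumor in exercised mice (interval -1.13 to -0.53).

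**Figure D2:**
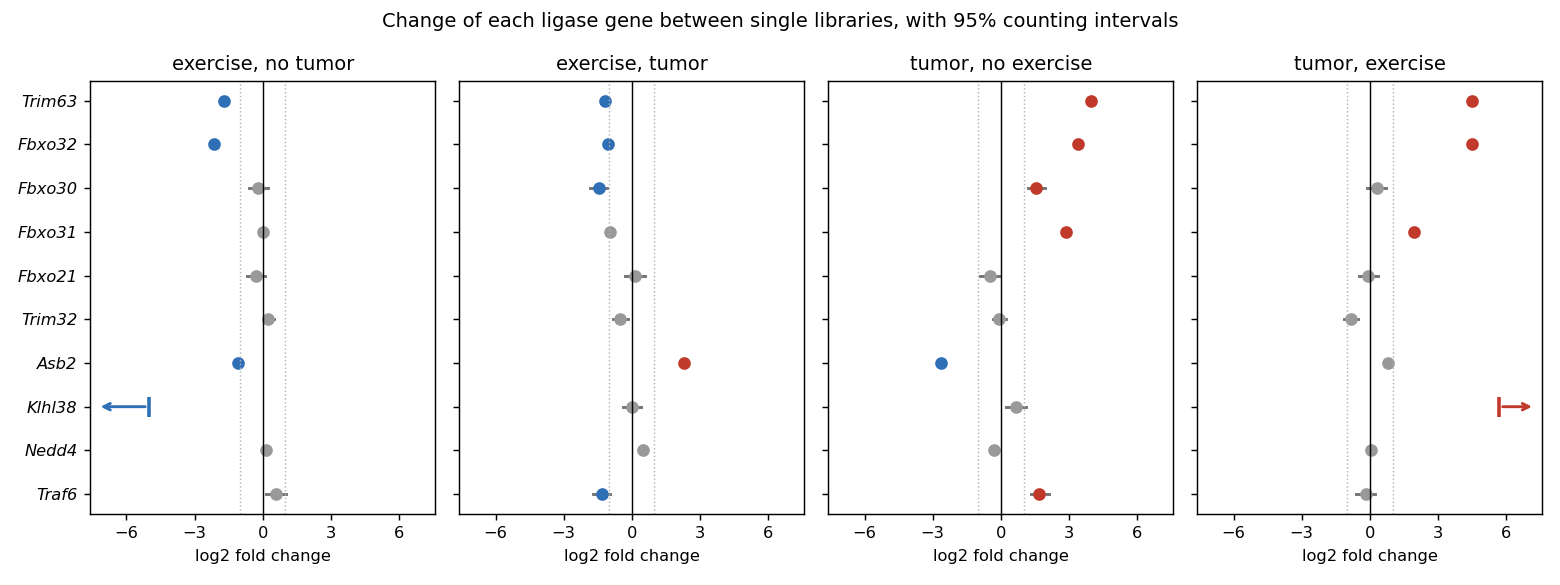
Log2 fold change (horizontal axis) of the 10 ligase genes in the comparisons of exercise and of the tumor, points with 95% counting intervals that are narrower than the point for abundant genes, red at least 2-fold higher, blue at least 2-fold lower, grey under 2-fold, dotted lines at 2-fold. For Klhl38, arrows start at the bound set by 0 reads in normal exercise, and Asb2 is the gene that lies left of the line with exercise in healthy mice (-1.11) and right of it in tumor-bearing mice (2.31).

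The reads of the 10 genes together made up 0.161% of the library in E-T-, 0.0883% in E+T-, 1.23% in E-T+ and 0.595% in E+T+. Most of the gain in the tumor libraries was Trim63 and Fbxo32. Trim63 held 30.8% of the ligase reads in E-T-, 19.3% in E+T-, 67.0% in E-T+ and 59.1% in E+T+. Asb2 held 31.2%, 29.5%, 0.702% and 6.88% in the same order, and Nedd4 held 13.0%, 29.5%, 1.47% and 4.04%. Asb2 had, by a narrow margin, the largest share of ligase reads in both libraries without a tumor, and Trim63 in both with one.

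**Figure D3:**
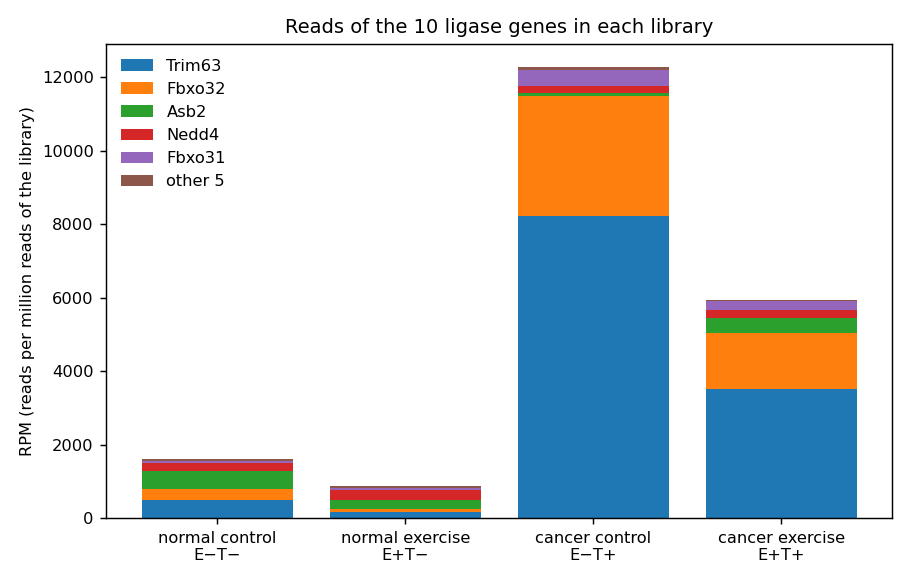
RPM, reads scaled to a library total of 1000000 (vertical axis, starting at 0) of the 10 ligase genes, stacked by gene for the 4 libraries, with the 5 genes of few reads joined as other 5. The stack is highest in cancer control, where the genes take 1.23% of reads, and lowest in normal exercise, where they take 0.0883%.

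The exercise difference itself was set side by side in tumor-bearing and healthy mice, as the log2 fold change with the tumor minus that without. It was 0.54 with a counting standard error of 0.04 for Trim63 and 1.10 with 0.05 for Fbxo32, so the exercised library was lower by less, in log2 terms, with the tumor than without. For Fbxo31 it was -0.96 with a counting standard error of 0.08, for Fbxo30 -1.26 with 0.28, and for Traf6 -1.89 with 0.28. These 3 genes were lower in E+T+ than in E-T+ by 0.94 to 1.45 on the log2 scale, while their values in healthy mice ran from -0.19 to 0.58. For Asb2 it was 3.42 with 0.06, the largest of the genes with reads in all libraries. In 5 of the 10 genes the size of this value was at least 2-fold, beside 41.0% of 15485 genes, and with 1 library per group the difference was not tested. When reads were scaled by library totals, the value was 0.31 for Trim63, 0.87 for Fbxo32 and -1.18 for Fbxo31. Fbxo32 thus fell short of 2-fold and Fbxo31 passed it.

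By pattern over the 4 libraries, the closest pairs of ligases were Fbxo21 with Nedd4 (distance 0.43), Trim63 with Fbxo32 (0.45) and Fbxo30 with Traf6 (0.58). The distance is Euclidean, between log2 values centred on the mean of each gene, so that a small distance means like changes and not like levels. Fbxo21 and Nedd4 are near because both change little. Among 12055 genes whose normalized read counts averaged 16 or more, those nearest to Trim63 were Arrdc2 (0.36), Slc22a4 (0.39), Fbxo32 (0.45), Wdr62 (0.66) and Map3k6 (0.68). Arrdc2, an arrestin-domain gene, had a normalized read count of 88.3, 34.7, 1312 and 636 in E-T-, E+T-, E-T+ and E+T+. Those nearest to Fbxo32 were Slc22a4 (0.35), Trim63 (0.45), Serpina3m (0.55), Arrdc2 (0.58) and Map3k6 (0.62).

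Asb2 had nearer companions. Slc25a40 (0.20), Fgf18 (0.21), P2ry14 (0.21), Pdzrn4 (0.23) and Cpxm2 (0.26) followed its pattern most closely, at much lower levels. Cpxm2 was the most abundant of them, with 460, 197, 64.3 and 293. For Klhl38 the distances rest on the pseudocount, since it has 0 reads in E+T-. The nearest gene was Pdk4 (1.55, or 0.50 with a pseudocount of 4), the kinase that holds back pyruvate dehydrogenase in fasted muscle, with a normalized read count of 427, 21.7, 1060 and 969, followed by Ms4a8a (1.79), Gm15441 (2.01), Tram2 (2.05) and Glp2r (2.16). With 4 libraries, likeness of this kind describes these libraries only.

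The other parts of the ubiquitin pathway were read from lists chosen by role, with earlier results of these libraries known. Of 41 other muscle ligases at the minimum, 5 were called higher and 8 lower in E-T+ against E-T-, beside 20.9% and 24.2% of all genes. Their median was 0.12 on the log2 scale. In E+T- against E-T- 1 of 42 was higher and 0 were lower, beside 9.44% and 12.1% of all genes. Thus the values of Trim63 and Fbxo32 were not shared by most ligases of the list. Trim54 and Trim55 encode MuRF3 and MuRF2, the closest relatives of MuRF1. Trim54 had a normalized read count of 1835 in E-T-, 2002 in E+T-, 2130 in E-T+ and 1838 in E+T+. Trim55 had 52.1, 40.5, 7.56 and 57.4. Trim55 was lowest in cancer control, where Trim63 was highest, and Trim54 stayed within 0.22 on the log2 scale.

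Kbtbd13, a kelch adaptor mutated in a nemaline myopathy, had 406, 212, 14.0 and 87.8 in the same order, lowest in cancer control as Asb2 was. Fbxo40, an F-box ligase that marks the insulin receptor substrate IRS1, had 15, 24, 0 and 14 reads. Its count of 0 in cancer control allows up to 3 reads.

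Few core parts of the cullin complexes passed 2-fold. Of 19, 2 were higher and 2 lower with the tumor and without exercise, beside 20.9% and 24.2% of all genes. With exercise in healthy mice 0 changed, beside 9.44% higher and 12.1% lower over all genes. With the tumor in exercised mice 0 changed, beside 13.9% and 16.3%. Cul1, the scaffold of F-box ligases, had a normalized read count of 889, 1043, 2434 and 1225 in E-T-, E+T-, E-T+ and E+T+. Skp1a, which links F-box proteins to it, had 2462, 2948, 1425 and 1788. Cul1 was thus higher in cancer control by 1.45 on the log2 scale while Skp1a differed by -0.79. Cul4b had 199, 186, 705 and 230, and Cul2 had 352, 462, 85.8 and 262.

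Of 22 genes of ubiquitin and its activating and conjugating enzymes, 2 were higher and 1 was lower with the tumor and without exercise. Over all genes the shares were 20.9% and 24.2%. Ube2d3, a conjugating enzyme, had a normalized read count of 3716, 5544, 8011 and 7490 in E-T-, E+T-, E-T+ and E+T+, and Ube2d1 had 1409, 1274, 581 and 1010. Ubb, a ubiquitin gene used by nearly all cells, was listed with only 2, 4, 1 and 0 reads in the same order.

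The proteasome, which breaks down the marked proteins, had a higher share of called genes than the other 5 pathway lists in E-T+ against E-T-, but not in the other comparisons. Of its 33 genes, 24 were called higher and 0 lower in E-T+ against E-T- (median 1.27), beside 20.9% and 24.2% of all genes. In exercised mice 4 were higher with the tumor and 0 lower (median 0.51), beside 13.9% and 16.3%. With exercise in tumor-bearing mice 0 were higher and 2 lower (median -0.40), beside 15.6% and 15.1%. In healthy mice 1 was higher and 0 lower (median 0.34), beside 9.44% and 12.1%. Psmd4, the ubiquitin receptor of the regulatory particle, had a normalized read count of 2626 in E-T-, 3742 in E+T-, 18279 in E-T+ and 12304 in E+T+. Psmc4, one of its ATPases, had 564, 1157, 3912 and 1838, and Psmd8 had 2192, 4314, 12152 and 10240. For these 3 genes normal exercise lay above normal control, where Trim63 and Fbxo32 lay below it.

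The list of genes upstream of the ligases holds 32 of the FoxO, insulin, glucocorticoid, cytokine and myostatin pathways. With the tumor and without exercise 15 were higher and 7 lower (median 0.62), beside 20.9% and 24.2% of all genes. In exercised mice 14 were higher and 4 lower with the tumor, beside 13.9% and 16.3%. With exercise, 2 were higher and 7 lower in tumor-bearing mice, beside 15.6% and 15.1%. In healthy mice 1 of 31 was higher and 6 lower with exercise, beside 9.44% and 12.1%. Foxo1 had a normalized read count of 630, 513, 3278 and 1499, the order of libraries of Trim63. Foxo3 had 0, 0, 13 and 9 reads. Ddit4, an inhibitor of mTORC1 raised by glucocorticoids, had 360, 380, 17486 and 7874, and was 5.60 higher on the log2 scale with the tumor and without exercise. Cebpd had 629, 481, 7648 and 4281, and Irs2, an insulin receptor substrate and FoxO target, had 9.63, 4.70, 173 and 60.7. All 5 were higher in both tumor libraries than in either library without a tumor. Foxo3 rests on few reads, and each of its counts of 0 allows up to 3. Ddit4, Cebpd and Irs2 were named for the size of their difference between E-T+ and E-T-, so they do not stand for the list. The 7 genes lower in E-T+ against E-T- were Foxo6, Smad3, Mstn, Dach2, Tfeb, Igf1 and Irs1.

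Of 21 genes whose proteins are reported targets of these ligases, 6 were higher and 4 lower with the tumor and without exercise, with a median of 0.03. These counts are near the 20.9% and 24.2% of all genes. Flnc encodes a muscle filamin, the family marked by Asb2, and had a normalized read count of 608, 837, 9647 and 7101. Myod1, a myogenic factor marked by atrogin-1, had 306, 289, 21.5 and 213. Myl1, a fast myosin light chain, had 152769, 86115, 16394 and 37666. These are transcript levels, and protein breakdown was not measured.

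**Figure D4:**
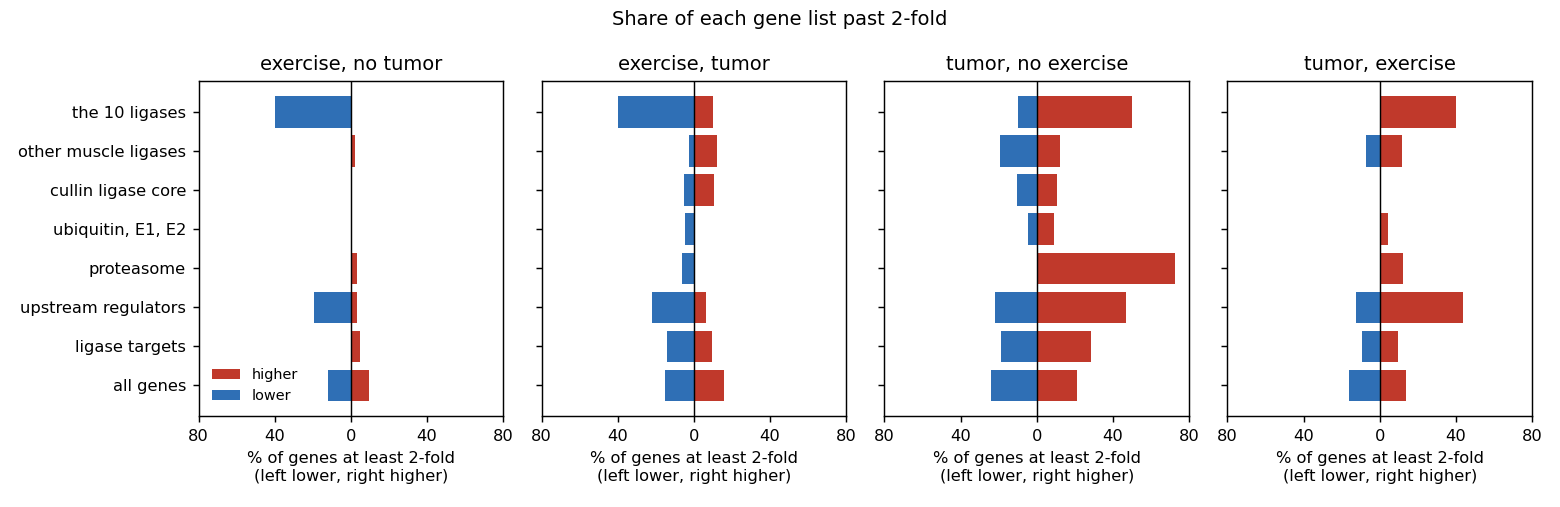
Percent of genes at the minimum that were at least 2-fold higher (red, to the right) or lower (blue, to the left) for the 10 ligase genes, 6 other lists of the pathway and all genes, in the comparisons of exercise and of the tumor. The proteasome bar with the tumor and without exercise reaches furthest, 24 of 33 genes, while the other muscle ligases and the cullin core stay at or below the bars of all genes.

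Markers of other cell types moved between the same libraries. Neutrophil markers (11 genes) summed to 9.14 and 19.3 RPM in normal control and normal exercise and to 241 and 172 in cancer control and cancer exercise. Macrophage markers (10) summed to 369, 402, 662 and 594, fibroblast markers (12) to 11050, 6811, 4039 and 4349, and fat markers (10) to 3224, 2017, 1112 and 2242 in E-T-, E+T-, E-T+ and E+T+. Erythroid markers (9) were lowest in normal exercise, at 4904 beside 20920, 20660 and 42310. Fibroblast and fat markers were lowest where Trim63 was highest.

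Keratinocyte markers (13) summed to 81.1 in cancer control and from 10.4 to 23.2 elsewhere, with 1 gene at 0 reads there and 8 or 9 in the other libraries. Markers of carcinoma epithelium (12) summed to 7.45, 4.54, 27.1 and 9.43, with 6 to 8 genes at 0 reads. Proliferation markers (10) summed to 32.1, 43.3, 93.9 and 33.5. Endothelial markers (10) ran from 358 to 534 and satellite cell markers (9) from 93.0 to 121. The satellite cell sum joins genes that moved in opposite directions. Of 8 at the minimum in E-T+ against E-T-, 1 was called higher (Myog) and 3 lower (Pax7, Myf5 and Myod1). Over all genes the shares were 20.9% and 24.2%. Schwann cell markers (9) summed to 515, 315, 583 and 193, highest in cancer control and lowest in cancer exercise. Single Schwann genes were mixed, with 2 called higher (Prx and Ncmap) and 3 lower (Sox10, S100b and Mag) in E-T+ against E-T-, beside the same shares. The part of these cells in the values of the ligases was not tested.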

How the data were processed

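Gastrocnemius RNA of 4 groups was sequenced from the 3′ end (QuantSeq), 1 library per group, with groups taken from the sample titles. According to the methods, the authors aligned reads with Bowtie2, counted them with bedtools coverage and applied quantile normalization in edgeR, and the submitters' processing notes name the build mm10. The annotation and the handling of strand and of reads with several matches are not given in the sources used here. Each deposited file holds 1 log2 value per gene, taken after adding 1 to the normalized read count.

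Reads were rebuilt by inverting the quantile adjustment with a fitted dispersion of 0.339. Of the deposited values, 100% fell within 0.0006 of a whole number of reads, but for abundant genes 1 read is smaller than the last printed digit, so those counts are approximate. The rebuild was tested on data simulated with this same adjustment and recovered 100% of read counts under 500. Such a test checks the inversion and cannot show that the authors' normalization was this adjustment. Fold changes are on the log2 scale after adding a pseudocount of 1, so that those of weakly expressed genes come out too small. Reads carry no stated molecular identifiers, so intervals cover counting error only. A count of 0 allows up to 3 reads, which was 2.27e-05% to 2.82e-05% of a library.

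The 10 genes, the lists and the rules were chosen with earlier results of these data known. Other genes were named by rule: up to 3 per pathway list with the largest difference of E-T+ from E-T- among those reaching a normalized read count of 16 in any library, set genes (Trim54, Trim55, Fbxo40, Skp1a, Cul1, Foxo1, Foxo3 and Ubb, and 1 that is not reported here), and the 5 nearest in pattern to each of 4 ligases. Alternatives were scaling by totals, trimmed mean of M values and median of ratios, pseudocounts of 0 and 4, no minimum or 16, and a 4-fold limit. Total scaling of the other named genes and the likeness to Klhl38 with a pseudocount of 4 were added after the data were seen. Python 3.11.15, numpy 2.4.6, pandas 2.3.3, scipy 1.17.1 and matplotlib 3.10.9 were used. RT-qPCR measurements were not analysed here.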

Additional observations from a re-analysis of the deposited data

Results flagged for a closer look

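In 12 of the 33 named genes, 2 of the 10 ligases and 10 of the 23 others, the exercised library lay on opposite sides of its unexercised partner in healthy and in tumor-bearing mice, with both counting intervals clear of 0. The same held for 20.8% of 13524 genes at the minimum in both pairs. Most of the 23 others were named for a large difference of E-T+ from E-T-, and E-T+ also enters the exercise value with the tumor. With 1 library per group the difference between the pairs was not tested. Given as the log2 fold change with exercise in E+T+ against E-T+, minus that in E+T- against E-T-, it was 3.42 for Asb2 (2.31 and -1.11) and -1.89 for Traf6 (-1.31 and 0.58), the only ones among the 10 ligases.

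Among the other muscle ligases it was 3.50 for Kbtbd13 and -0.34 for Trim54, and for the scaffold Cul1 it was -1.22. Of the conjugating enzymes, Ube2d1 had 0.94 and Ube2d3 had -0.67. When reads were scaled by library totals, an alternative added after the data were seen, Ube2d1 went from -0.15 to 0.02 in healthy mice, so its opposite direction was lost. The proteasome genes Psmd4, Psmc4 and Psmd8 had -1.08, -2.13 and -1.22, being higher with exercise in healthy mice and lower with it in tumor-bearing mice. Among reported ligase targets, Flnc had -0.90 and Myl1 had 2.03.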

How the results depend on the processing

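Of 80 recomputed counts of changed ligases, 77 stayed within 1.5 times the reported count. The other 3 came from the 4-fold limit, which left 2 genes lower with exercise in healthy mice, 3 higher with the tumor and without exercise, and 0 lower with exercise in tumor-bearing mice. All 25 recomputed medians kept their sign, from 1.08 to 1.18 for the tumor without exercise, from 0.40 to 0.55 for it with exercise, from -0.24 to -0.08 for exercise in healthy and from -0.79 to -0.72 in tumor-bearing mice. The 297 single values of the ligases are fold changes and differences between the exercise values with and without the tumor. Of these, 23 moved by more than their counting error, and no called value changed sign. That difference for Klhl38 has no counting error, so it could not be counted as moved, although it went from 6.32 to 4.37 with a pseudocount of 4. Scaling by library totals moved the median of all genes from -0.01 to 0.15 for exercise in healthy mice and from -0.03 to -0.18 for the tumor in exercised mice. Under it Asb2 (-0.95) fell short of 2-fold with exercise in healthy mice, and Fbxo31 (-1.01) passed it in tumor-bearing mice. Nedd4 went from 0.04 to -0.12 for the tumor in exercised mice, both under 2-fold. With a pseudocount of 4 in place of 1, Klhl38 went from -6.32 to -4.37 with exercise in healthy mice, and its distance to Pdk4, recomputed after the data were seen, from 1.55 to 0.50. No paired analysis was possible because each group had 1 library, and for the same reason no library could be left out. Depth limits Klhl38, Fbxo21, Fbxo30 and Traf6 most.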
